A study of Mus musculus with 2 samples.

Results

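Neurons of the embryonic forebrain are born near the ventricle and must travel to their final layer, and 7 genes that act in this migration were measured here: Dcx, Dclk1, Dclk2, Pafah1b1, Nde1, Ndel1 and Flna. They were chosen by name, as the doublecortin family members of the migrating neuron, the Lis1 gene with its dynein adaptors, and filamin A, and all 7 were found among the 43346 mouse genes of the deposited tables. The material was forebrain of healthy B6NCrl mice taken at embryonic day 15.5, with male and female embryos pooled. There was 1 group with 2 biological replicates, 78 embryos in the pool of replicate 1 and 62 in that of replicate 2. Each library began with 10 ng of RNA longer than 200 nucleotides, to which spike-in transcripts were added. No treatment, mutant or other age was compared, so the values describe the tissue and the spread between its pools.

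A migrating neuron extends a leading process and then pulls its nucleus forward along microtubules. Doublecortin, the product of Dcx, binds and stabilises microtubules through a pair of doublecortin domains, and the related Dclk1 and Dclk2 proteins carry such domains in front of a protein kinase. Lis1, the product of Pafah1b1, binds cytoplasmic dynein, the motor that draws the nucleus and centrosome, and Nde1 and Ndel1 bring Lis1 and dynein together. Filamin A crosslinks actin filaments at the cell cortex. In humans, mutations of DCX and PAFAH1B1 cause lissencephaly, a brain with a smooth surface, and mutations of FLNA leave neurons in nodules along the ventricle.

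Levels are given as TPM, a length-corrected relative abundance of transcripts that sums to the same total in each library. Values are those of replicate 1 and then replicate 2, or their mean ± SD (n = 2). The libraries held 38720511 and 35103430 expected counts, the estimated reads per gene, of which the 7 genes took 0.223% and 0.229%. Because a two-sided exact sign-flip test of 2 libraries can give no p below 0.5, nothing was tested, and each difference is set against the spread between the pools. For the same reason no other gene can be said to share a pattern with a member. Defining genes of the labelled tissue were expressed: the cortical factor Emx1 had 57.2 and 65.19 TPM, the neuronal factor Neurod6 392.88 and 385.04 TPM, and the progenitor factor Pax6 37.14 and 46.67 TPM. In a whole tissue, fewer cells of a type and less RNA per cell cannot be told apart.

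All 7 genes were well expressed, and Dcx stood far above the rest. Of the 7, 2 reached 100 TPM in both libraries, Dcx and Dclk1, against 3.94% of all mouse genes and 7.55% of the 21474 protein-coding genes. All 7 reached 10 TPM, as did 21.2% of all genes and 40.9% of protein-coding genes. At 50 TPM the count was 6 of 7, against 8.16% and 15.8%, with Pafah1b1 the gene left below. Together the 7 genes made up 761.19 and 769.47 TPM.

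Dcx (ENSMUSG00000031285.10, mm10 chrX:143855842-143933311, minus strand) had 288.46 and 294.97 TPM, or 292 ± 4.60 TPM, on 37310 and 35148 reads. By mean TPM it held rank 459 among the protein-coding genes, with 97.9% of them below it. Dclk1 (ENSMUSG00000027797.11, chr3:55242364-55539068, plus strand) came next with 122.81 and 120.28 TPM. Both values lay far below those of Dcx, and Dcx exceeded Dclk1 by 1.26 ± 0.04 on the log2 scale, a ratio of 2.40. Dclk2 (ENSMUSG00000028078.10, chr3:86786151-86920852, minus strand) had 87.69 and 82.5 TPM. Its libraries did not reach those of Dclk1, which exceeded it by 0.51 ± 0.04 on the log2 scale, or 1.43 times. Dcx over Dclk2 came to 1.78 ± 0.09, or 3.43 times. The remaining gene of the family, Dclk3, was listed at 4.2 TPM in each library, below each library of the other 3.

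The dynein regulators were lower and closer together. Ndel1 (ENSMUSG00000018736.10, chr11:68821434-68871858, minus strand) had 76.62 and 71.39 TPM, and its near relative Nde1 (ENSMUSG00000022678.12, chr16:14163275-14192928, plus strand) had 50.38 and 57.14 TPM. The ranges stayed apart, but the log2 ratio of Ndel1 over Nde1 was 0.60 in replicate 1 and 0.32 in replicate 2, a mean of 0.46 ± 0.20 that made it the loosest of the 5 ratios computed. Pafah1b1 (ENSMUSG00000020745.11, chr11:74673949-74724670, minus strand) was the lowest member, at 48.0 and 46.72 TPM. Even so, 83.0% of protein-coding genes lay below it. Against the summed level of its partners Nde1 and Ndel1, Pafah1b1 stood at a log2 ratio of -1.43 ± 0.04, which is 0.371 of their messages.

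Flna (ENSMUSG00000031328.11, chrX:74223461-74249820, minus strand) had 87.23 and 96.47 TPM. Both values lay far above those of Flnc, the muscle filamin, which had 1.53 and 1.55 TPM. Filamin A is also abundant in vessels and meninges, and genes of those cells were present in the pools. The 4 endothelial genes Cldn5, Kdr, Pecam1 and Esam summed to 127.42 and 134.89 TPM, the 3 mesenchymal genes Col1a1, Col3a1 and Dcn to 131.82 and 141.66 TPM, and the 5 mural genes to 33.93 and 34.85 TPM, with the smooth muscle myosin Myh11 at 0.21 and 0.23 TPM. After scaling of the libraries (below), the median log2 ratio of replicate 2 over replicate 1 was 0.08 for the endothelial genes. It was 0.09 for the mesenchymal and 0.07 for the mural genes, and Flna had 0.16. Single genes of these lists ran from -0.03 for Col1a1 to 0.22 for Dcn. The part of these cells in the level of Flna was not tested.

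The order by mean TPM was Dcx, Dclk1, Flna, Dclk2, Ndel1, Nde1 and Pafah1b1. Neighbours in this order did not overlap between libraries, with the exception of Flna and Dclk2, where the lower Flna library (87.23 TPM) lay under the higher Dclk2 library (87.69 TPM). Nde1 and Pafah1b1 were separated narrowly, 50.38 TPM in the lower Nde1 library against 48.0 TPM in the higher Pafah1b1 library. The deposited intervals of both genes in that replicate, 47.6 to 52.3 and 42.4 to 51.2 TPM, overlapped. Such intervals cover the estimation in a library, and their level is not stated. They surround the posterior mean, another deposited estimate, so the TPM given here can lie outside them. Dcx in replicate 1, at 288.46 TPM, had a posterior mean of 281.62 TPM and an interval of 277 to 286 TPM.

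**Figure D1:**
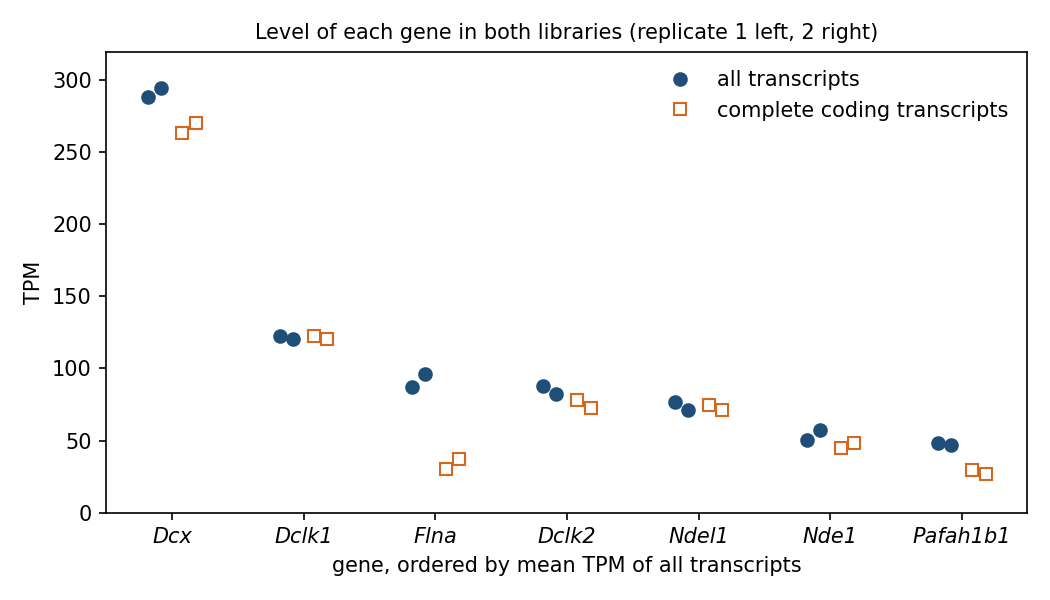
TPM of each gene, with replicate 1 to the left of replicate 2; filled circles sum all transcripts of the gene and open squares only those annotated with a complete coding sequence. Dcx lies near 292 TPM by all transcripts, and Flna is the gene whose squares fall farthest below its circles, at 30.22 and 36.92 TPM against 87.23 and 96.47 TPM.

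The files also divide each gene among its transcript models, 52 for the 7 genes, of which 8 had 0 reads in both libraries. A gene total mixes models with a complete coding sequence with others. Some have a coding sequence cut off by the annotation, a partial record that does not say the message makes no protein. Others are marked for nonsense-mediated decay (the pathway that destroys messages with an early stop codon) or keep an intron. For Dclk1 every model was a complete coding one. Complete coding models held 97.4% and 99.7% of the TPM of Ndel1, 91.4% and 91.6% for Dcx, 89.1% and 88.0% for Dclk2, and 89.3% and 84.6% for Nde1. The 2 exceptions, under 70% in both libraries, were Pafah1b1 at 61.6% and 57.6% and Flna at 34.6% and 38.3%. Such genes are not rare: 23.1% of the 8790 protein-coding genes at 10 TPM in both libraries fell under the same limit, and their median share was 93.9% (quartiles 71.0% and 100%).

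**Figure D2:**
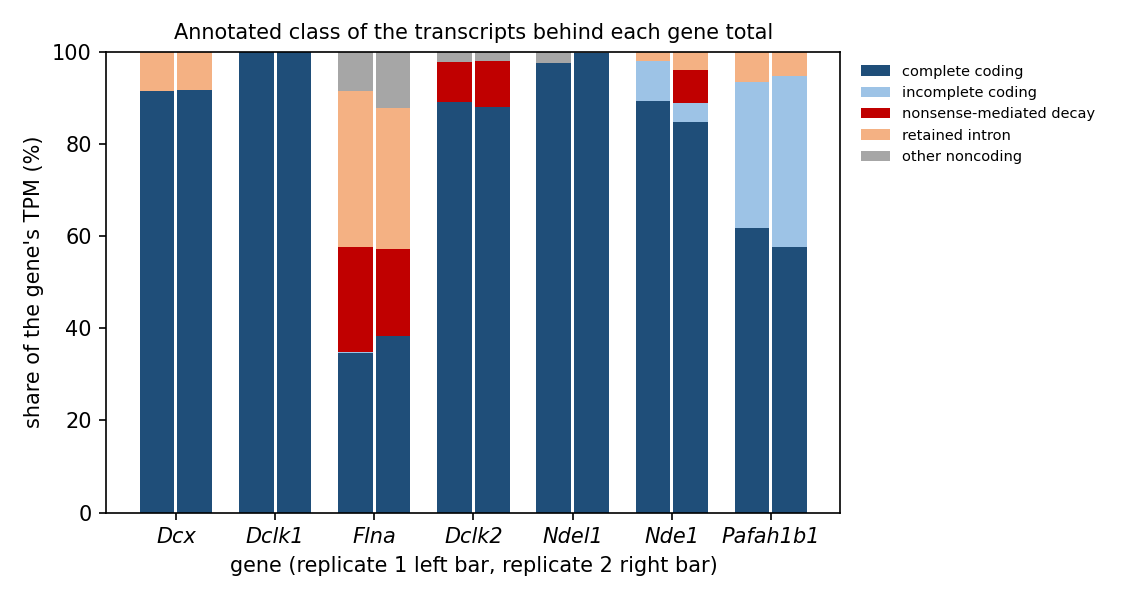
Share of each gene's TPM by the annotated class of its transcripts, in percent, with replicate 1 as the left bar and replicate 2 as the right bar of each pair. Complete coding transcripts fill the bars of Dclk1 and reach 34.6% and 38.3% in Flna.

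Counted by complete coding transcripts, the order changed for Flna alone. Flna, the third gene by all transcripts, was the sixth with 33.6 ± 4.74 TPM, below Nde1 at 46.7 ± 2.37 TPM and above Pafah1b1 at 28.2 ± 1.89 TPM. Dcx stayed highest at 267 ± 4.67 TPM and Pafah1b1 lowest. In this order the libraries of Dclk2 (78.14 and 72.6 TPM) and Ndel1 (74.64 and 71.17 TPM) overlapped. The lower Flna library, 30.22 TPM, lay only narrowly above the higher Pafah1b1 library, 29.57 TPM. By complete coding transcripts the ratio of Pafah1b1 to Nde1 plus Ndel1 was 0.236, or -2.08 on the log2 scale. Counting incomplete coding models too brought the log2 value to -1.47, near the -1.43 of all transcripts. For Pafah1b1 that step adds a single model of 525 bases, Pafah1b1-204. It held 31.8% and 37.1% of the gene's TPM on 3.2% and 4.1% of its reads, so the nearness of the 2 values rests on few reads.

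Dclk1 transcripts encode proteins that differ by whole domains. The files hold 3 models, named by the later GENCODE release M21: Dclk1-201, the long form with doublecortin domains and kinase; Dclk1-203, which starts at the same codon and ends early, so that it keeps the doublecortin domains and lacks the kinase (the doublecortin-like form); and Dclk1-202, which starts inside the gene and encodes the kinase without the doublecortin domains. Of the 1089 coding bases of Dclk1-203, 1035 are shared with the 2268 coding bases of the long form and 54 are its own. Dclk1-202 has 1266 coding bases, of which 1173 are shared with the long form. Their last 45 coding bases are shown because the 3 ends tell the forms apart; each is written 5′ to 3′ on the plus strand of GRCm38 (mm10), and capitals mark the stop codon. They lie at chr3:55533687-55533734 for the long form, chr3:55466582-55466629 for the doublecortin-only form and chr3:55533580-55533627 for the short kinase form.
Dclk1-201: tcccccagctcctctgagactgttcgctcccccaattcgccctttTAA
Dclk1-203: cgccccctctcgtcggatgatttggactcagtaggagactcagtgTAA
Dclk1-202: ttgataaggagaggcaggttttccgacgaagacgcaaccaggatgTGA
The long and doublecortin-only forms stop in different exons, while the stops of the long and short forms lie close together near the end of the gene.

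The long form had 57.77 and 57.76 TPM, nearly the same in both libraries. The doublecortin-only form had 55.65 and 52.51 TPM, and the short kinase form 9.39 and 10.01 TPM. In shares of the gene, these were 47.5% ± 0.694, 44.5% ± 1.17 and 7.98% ± 0.478 of TPM. The long form was slightly the higher in each library, at 1.07 ± 0.0438 times the doublecortin-only form, and both stood well above the short form. The deposited intervals of the long and doublecortin-only forms, 54.6 to 57.8 TPM and 53.0 to 55.7 TPM, overlapped in replicate 1, and those of replicate 2, 54.5 to 57.9 TPM and 49.8 to 52.5 TPM, did not. Adding the forms by what they encode, transcripts with doublecortin domains reached 113.42 and 110.27 TPM, against 67.16 and 67.77 TPM for transcripts with the kinase, a ratio of 1.66 ± 0.0436. The M21 annotation lists 15 Dclk1 transcripts, so reads of the models absent from the tables could have been assigned to these 3. The small nuclear RNA Gm25132, which lies inside Dclk1 on the same strand, had 5.34 and 0 TPM, and Gm21954, on the opposite strand, had 0 TPM in both libraries. Gm25132 covers 107 bases, and the libraries began with RNA longer than 200 nucleotides, so nothing is read from its values.

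**Figure D3:**
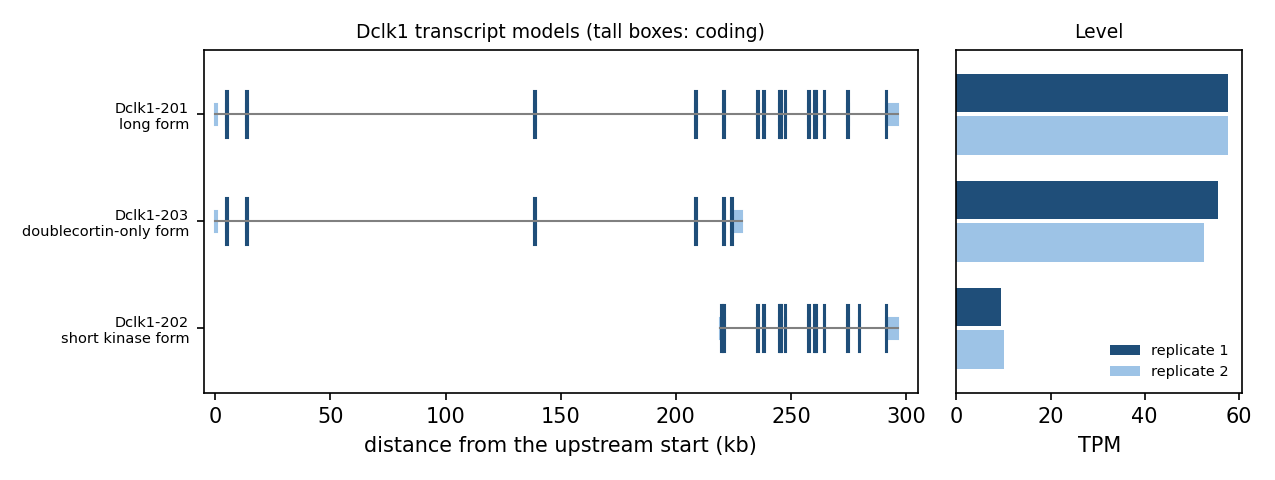
Left, the 3 Dclk1 transcript models against distance from the upstream start in kb, with coding exons as tall boxes and untranslated parts as low boxes; right, TPM of each form in replicate 1 (dark) and replicate 2 (light). The long and doublecortin-only bars are of similar length, 57.77 and 57.76 TPM against 55.65 and 52.51 TPM, and the short kinase bars reach 9.39 and 10.01 TPM.

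The upstream start of Dclk1 gives rise to the long and doublecortin-only forms, and an internal start gives the short kinase form. Upstream transcripts exceeded internal ones 12.1 and 11.0 times in the 2 libraries, a mean of 11.5 ± 0.752. The sequences around both starts are shown because transcripts from them differed so in level; they come from RefSeq on GRCm38.p6, plus strand, at chr3:55242114-55242393 and chr3:55461478-55461757, and capitals mark the first 30 bases from the RefSeq start.
Dclk1 upstream start: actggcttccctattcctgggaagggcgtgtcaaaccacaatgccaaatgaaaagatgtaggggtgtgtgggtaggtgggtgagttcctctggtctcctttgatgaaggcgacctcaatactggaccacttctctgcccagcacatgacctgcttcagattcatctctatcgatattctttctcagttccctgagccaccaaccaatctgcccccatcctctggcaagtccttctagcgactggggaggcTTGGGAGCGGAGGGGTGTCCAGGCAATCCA
Dclk1 internal start: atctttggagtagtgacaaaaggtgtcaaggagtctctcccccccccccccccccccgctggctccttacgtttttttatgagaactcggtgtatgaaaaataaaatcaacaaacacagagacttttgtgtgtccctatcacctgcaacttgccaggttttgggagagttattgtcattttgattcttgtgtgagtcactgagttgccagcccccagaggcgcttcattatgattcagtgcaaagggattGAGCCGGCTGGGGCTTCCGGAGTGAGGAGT
The 250 bases before the start were 52.4% G and C at the upstream start and 46.8% at the internal one, where the median over 32851 RefSeq windows was 52.4%. Each held 4 CG pairs, against a median of 6. Searched on both strands, the box CCAAT occurred 1 time before the upstream start and 0 times before the internal one, and 33.8% of all windows hold it. The TATA box TATAAA, the GC box GGGCGG and the proneural E-box CAGATG were in neither window, and 12.4%, 32.7% and 14.4% of all windows hold them. The transcript models begin 162 and 30 bases after these RefSeq starts.

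The 4 coding models of Dcx have nearly the same coding sequence, of 1080 to 1098 bases, and differ mostly in the untranslated region after the stop codon. Dcx-203, with a 3′ untranslated region of 2840 bases, had 113.76 and 122.09 TPM, and Dcx-201, with 7709 bases, had 111.49 and 113.31 TPM. Dcx-203 was the higher in each library, but narrowly: the deposited intervals of the pair, 106 to 115 TPM and 107 to 111 TPM, overlapped in replicate 1, and those of replicate 2, 115 to 124 TPM and 108 to 112 TPM, did not. By reads the picture differs, since a longer transcript yields more of them: Dcx-201 took 62.8% and 62.2% of the reads of the gene and Dcx-203 28.5% and 29.8%. Dcx-204, whose annotated 3′ untranslated region has 78 bases, followed with 23.2 and 22.4 TPM, and Dcx-202 with 15.22 and 12.48 TPM. The 2 models that keep an intron held 8.59% and 8.37% of the TPM.

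**Figure D4:**
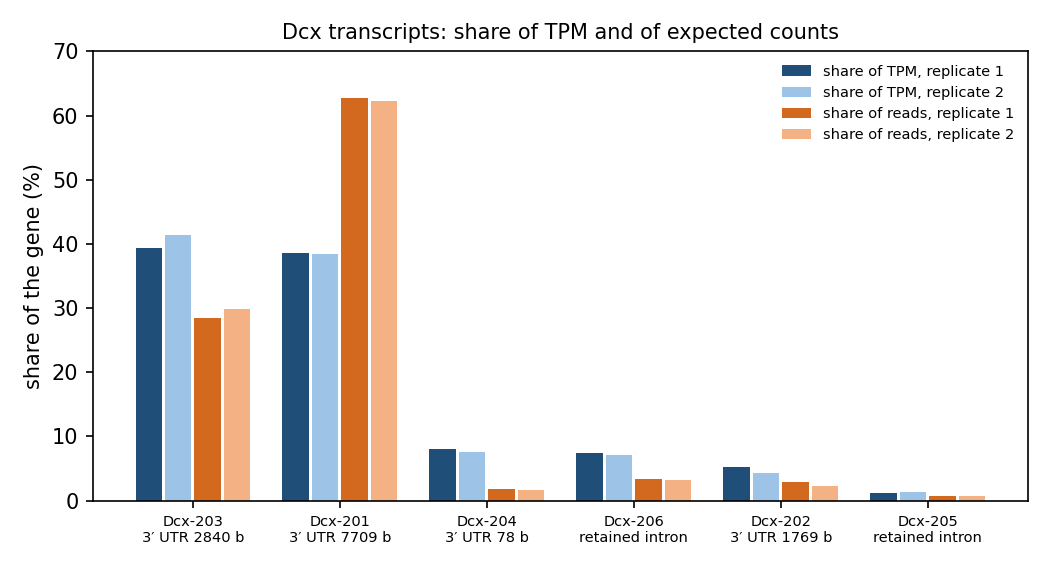
Share of Dcx held by each transcript model, in percent of the gene's TPM (blue) and of its reads (orange), with replicate 1 darker and replicate 2 lighter; labels give the length of the 3′ untranslated region or the class. Dcx-203 and Dcx-201 are close by TPM, and Dcx-201 takes 62.8% and 62.2% of reads.

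In coding sequence, Dcx-201 and Dcx-203 differ by 3 bases at the end of an exon, a change that keeps the reading frame. The joined exons are shown on the minus strand of GRCm38, between chrX:143863593-143870621 with the intron left out, and capitals mark the bases that Dcx-201 has in addition.
Dcx-201: cggaagcacaagGTAgacctgtacctgccg
Dcx-203: cggaagcacaaggacctgtacctgccg
Dcx-202 shares all 1098 coding bases of Dcx-201, and Dcx-204 has 1080 of them. The extra bases are thus present with a long 3′ untranslated region in Dcx-201 and with a shorter one, of 1769 bases, in Dcx-202.

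Dclk2 showed the same kind of small difference. Its leading models were Dclk2-209, with 36.59 and 32.18 TPM, and Dclk2-201, with 25.15 and 25.39 TPM, and their coding sequences of 2265 and 2268 bases differ by 3 bases. Dclk2-202, which ends in other coding bases, had 10.09 and 10.06 TPM. The Dclk2 model marked for nonsense-mediated decay, Dclk2-204, held 8.63% and 9.88% of the TPM of the gene.

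For the dynein regulators, 1 or 2 models carried most of the message. Ndel1-201 held 88.22% and 87.8% of Ndel1, and Nde1-201 held 75.29% and 71.19% of Nde1. In each of these genes the lesser coding models end differently: Ndel1-203, with 945 coding bases against 1035 in Ndel1-201, had 5.66 and 6.94 TPM, and Nde1-202, with 951 against 1032 in Nde1-201, had 5.97 and 6.23 TPM. Nde1-205, marked for nonsense-mediated decay, had 0 reads in replicate 1 and 173.39 in replicate 2, or 4.02 TPM, and its deposited intervals in the 2 libraries overlapped. The start of Nde1 lies over 77 bases of Marf1, a gene on the opposite strand with 11.76 and 11.25 TPM, and no source used here says whether reads were counted by strand.

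Pafah1b1 was led by Pafah1b1-201 with 23.39 and 23.37 TPM, a spread smaller than that of any other leading model apart from the long form of Dclk1. Pafah1b1-202, with the same 1230 coding bases, had 6.18 and 3.53 TPM. A further 15.26 and 17.33 TPM were assigned to Pafah1b1-204, a model of 525 bases whose 291 coding bases are all shared with Pafah1b1-201 and whose 3′ end is incomplete in the annotation. This model rested on 152.16 and 158.74 reads, whereas Pafah1b1-201 rested on 3122.71 and 2866.14.

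In Flna the leading transcript held the smallest share among the 7 genes. This was the coding model Flna-202, which had 28.7 and 34.48 TPM, or 32.9% and 35.74% of the gene. Flna-213, marked for nonsense-mediated decay, had 19.74 and 18.31 TPM, or 22.6% and 19.0%. Short models that keep an intron held 33.9% and 30.5% of the TPM, on 533.67 and 480.48 of the 10244 and 10396 reads of the gene. In reads, complete coding models took 5837 and 6552. TPM divides reads by length, so these short models turn few reads into many TPM.

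Flna-202 and Flna-213 are nearly the same molecule. They share 8207 bases, 98.35% of Flna-202, and only 138 bases of Flna-202 and 26 of Flna-213 set them apart. An exon starts 2 bases later in Flna-213, which changes the reading frame, and its annotated coding sequence has 1531 bases against 7917 in Flna-202. The Flna-213 model also begins later, at chrX:74246398 against 74246534. It has 0 bases of 5′ untranslated region against 98, so its coding length also reflects an incomplete 5′ end. The joined exons at that point, and an exon of 24 bases that Flna-213 and Flna-201 hold and Flna-202 lacks, are shown because the division of reads between coding and decay models rests in part on them. All are on the minus strand of GRCm38, the junction between chrX:74240312-74240424 with the intron left out and the exon at chrX:74232967-74232990, and capitals mark the bases that Flna-202 has in addition.
Flna-202: taaagggtcccaAGggtgaggagcgtgta
Flna-213: taaagggtcccaggtgaggagcgtgta
Flna 24-base exon: tgtcaatcggaggtcacgggctag
In replicate 1 the deposited intervals ran from 20.3 to 30.2 TPM for Flna-202 and from 15.9 to 23.0 TPM for Flna-213, and overlapped. In replicate 2 they ran from 27.3 to 36.1 TPM and from 13.3 to 20.1 TPM, and did not. Flna-201, the coding model with the 24-base exon, had 0 and 0.18 TPM.

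Division among several transcripts was common in these genes. In 4 of the 7 the leading transcript held under 50% of TPM in both libraries, namely Dcx, Dclk1, Dclk2 and Flna, against 23.0% of the 6695 protein-coding genes at 10 TPM with more than a single transcript. Pafah1b1 stayed outside this count only narrowly, since its leading model held 48.74% in replicate 1 and 50.02% in replicate 2. The number of models listed for a gene bears on this count and was not matched.

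Between the pools the 7 genes differed little. After scaling the libraries with TMM factors, the log2 ratio of replicate 2 over replicate 1 ran from -0.12 for Pafah1b1 to 0.21 for Nde1, with Flna at 0.16, Dcx at 0.06 and Dclk1 at -0.01. In 0 of 7 genes was the higher library more than 25% above the lower, a difference that 21.7% of the 19165 genes with at least 10 reads passed. Among the 3833 genes with at least the 4867 summed reads of Nde1, the member with the fewest reads, 0.704% passed. The count of 0 is near this background. Scaling by the spike-ins instead shifted the median of all genes by 0.198, and Nde1 and Flna then passed the 25% difference, at 0.41 and 0.36. Under that scaling 30.3% of the 19165 genes and 5.79% of the 3833 passed it, and nothing is read from the 2 of 7. The pools themselves were not alike in every tissue component: the 3 choroid plexus genes summed to 805.5 and 356.26 TPM, and all 3 genes differed by more than 25%. The part of this difference in the members' values was not tested.

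**Figure D5:**
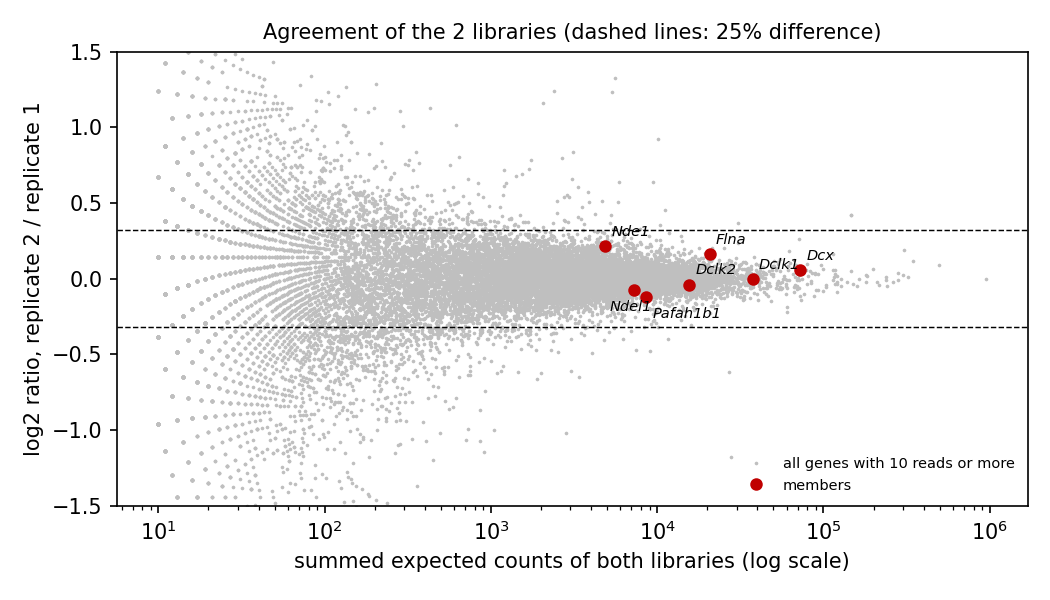
Log2 ratio of replicate 2 over replicate 1 after TMM scaling against the summed reads of both libraries (log axis); grey points are the 19165 genes with at least 10 reads, of which 381 lie outside the plotted range, and red points are the 7 genes. All 7 lie between the dashed lines that mark a difference of 25%, from -0.12 for Pafah1b1 to 0.21 for Nde1.

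Messages for the partners of these proteins were also present, at levels that differed widely between lists. Lis1 has a separate role as the regulatory subunit of an acetylhydrolase that inactivates platelet-activating factor, and the catalytic subunits of that enzyme exceeded Pafah1b1 itself: Pafah1b3 had 434.46 and 457.2 TPM and Pafah1b2 had 189.91 and 189.35 TPM. Of 11 genes of dynein, dynactin and their helpers, 11 reached 10 TPM and 6 reached 100 TPM, with a median of 119 TPM. Among all protein-coding genes, 40.9% and 7.55% reached these limits in both libraries. The dynein light chain Dynll1 was highest at 1192.1 and 1251.25 TPM, followed by Dynlrb1 at 523.17 and 547.78 TPM, and the cargo adaptor Bicd2 lowest at 22.23 and 21.37 TPM. The intermediate chain Dync1i1 alone in this list differed by more than 25%, with 66.94 TPM in replicate 2 against 94.82 TPM in replicate 1. Of all genes with at least 10 reads 21.7% passed this difference, and of those with at least the reads of Nde1 0.704% did.

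Of 20 other genes whose human forms are mutated in lissencephaly or heterotopia or act in their pathways, 18 reached 10 TPM and 7 reached 100 TPM, with a median of 67.4 TPM. The shares of all protein-coding genes at these limits were 40.9% and 7.55%. The alpha-tubulin Tuba1a was highest at 13856 and 13641.49 TPM and the beta-tubulin Tubb3 next at 1511.61 and 1506.99 TPM, while the Cdk5 activator Cdk5r2 was lowest at 1.98 and 1.76 TPM. Among 11 binding partners and kinases of doublecortin, Ndel1 or filamin, 9 reached 10 TPM and 1 reached 100 TPM, with a median of 32.6 TPM. The 1 of 11 is near the share of 7.55%. The kinesin Kif1a, which doublecortin is known to bind, had 273.57 and 284.05 TPM, the microtubule affinity kinase Mark2 had 43.95 and 47.99 TPM, and the scaffold Disc1, a partner of Ndel1, had 1.04 and 1.0 TPM. The median of the 7 migration genes was 85.1 TPM, between those of the dynein genes and of the other malformation genes.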

How the data were processed

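RNA of 2 forebrain pools was measured, with a gene table and a transcript table per library. The authors deposited expected counts, which are estimated reads and need not be whole. They also deposited TPM values, corrected for effective length and summing to the same total in each library, as maximum-likelihood estimates (used here) and as posterior means, and percent values giving each transcript's share of its gene. Per the notes deposited with the files the build is mm10 and the annotation GENCODE M4; no quantifier, version or strand setting is named in the sources used here. A manual linked in the labels' protocols describes a cDNA kit, and the priming used is not stated.

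Symbols, coordinates and transcript classes were joined from GENCODE M21 on the same assembly, by identifier without version, for 42462 of 43346 mouse genes (98.0%) and 97.9% of 103639 transcripts. Of the members' 52 transcripts, 1 differed in length from M21. Ratios of TPM were taken within each library without a pseudocount, and called beyond the spread where the mean exceeded the SD and both libraries had its sign, which held for all 5. Dclk1 forms follow the annotated start and stop codons; the short form's stop was accepted within 1000 bases of the last stop of the gene, a tolerance set after the annotation was seen. Expected counts were rounded to whole numbers and scaled with TMM factors in edgeR 4.0.16 (R 4.3.3), and log2 ratios of the libraries were computed after adding 0.5 reads, for genes with 10 reads or more. These steps were tested on simulated data. Alternatives used DESeq2 1.42.0 size factors, spike-ins, posterior means, expected counts without length correction, coding transcripts, a pseudocount of 1 TPM, other thresholds and each library alone. Tables were handled with pandas 2.3.3 and numpy 2.4.6 in Python 3.11.15, and plots drawn with matplotlib 3.10.9. The members and all lists were chosen with earlier results of these data known. The text names all members, the paralogs Dclk3 and Flnc, the 2 highest genes and the lowest gene of each list, and genes overlapping a member at 1 TPM or more; Dync1i1 and the genes that define the tissue or other cells are named besides, and Gm21954 was chosen after its values were seen. RefSeq protein sequences were not used here, and some genes and 1 ratio that the design names are not reported here.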

Additional observations from a re-analysis of the deposited data

How the results depend on the processing

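Of 56 alternative values, 44 kept their direction and moved by less than 1 SD of the libraries, or for counts by less than 1.5 times, and none changed direction. Part of this was fixed in advance. With 2 libraries, either alone lies within 1 SD of their mean, so those values of ratios and shares could not move. The Dclk1 shares could not move with coding transcripts alone, because every Dclk1 model is complete coding. With 0 genes past a difference of 25%, a stricter limit of 1.5 times could only give 0 again. Shares and counts have no direction to change. Dropping the length correction and comparing expected counts moved 4 of the 5 log2 ratios, to 0.95 for Dcx over Dclk1, 1.27 for Dclk1 over Dclk2, 2.22 for Dcx over Dclk2 and -0.50 for Pafah1b1 over Nde1 plus Ndel1, and set the long form of Dclk1 at 53.6% of its gene. With annotated coding transcripts alone the ratios became 1.14 for Dcx over Dclk1 and 0.69 for Dclk1 over Dclk2. With complete coding transcripts, an alternative added after the data were seen, they were 1.14 and 0.69, and Pafah1b1 over Nde1 plus Ndel1 was -2.08. Spike-in scaling put 2 of 7 genes past a difference of 25%, as it did 30.3% of all 19165 genes and 5.79% of the 3833 with at least the reads of Nde1. A limit of 50 TPM was met by 6 of the 7. Using either library alone left each ratio on the same side. No paired analysis was possible because there is 1 group and no comparison between groups.

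The precision is limited by 2 libraries, by the M4 models among which reads were divided, and by few reads for short models. Deposited intervals cover estimation only, and p-values were not computed.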

Other observations

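Values are TPM in replicate 1 and then replicate 2. Among the other genes of the lists, the microtubule-associated Map1b had 572.49 and 573.16 TPM and the 14-3-3 gene Ywhae, which neighbours Pafah1b1 in the human deletion of Miller-Dieker syndrome, had 1175.03 and 1125.55 TPM, well above the 48.0 and 46.72 TPM of Pafah1b1. The Reelin adaptor Dab1 had 141.88 and 123.85 TPM, and of the Reelin receptors Lrp8 had 70.96 and 76.76 TPM and Vldlr 31.8 and 28.6 TPM. Nudc, a partner of Lis1 first known from fungal nuclear movement, had 231.8 and 233.07 TPM. The kinase Aurka, which phosphorylates Ndel1 in dividing cells, had 39.6 and 45.82 TPM. These genes were chosen for the text after their values were seen.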
